A study of Mus musculus with 112 samples.

Results

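Mice differed in how much mitochondrial RNA their muscle lost in a cast, and 2 sets at the ends of that range are described here. They hold 24 of the 56 mice of the study, which is 48 of 112 libraries. For each library the percent of counts in symbols starting mt- was taken, which are the genes of the mitochondrial genome. Of the 56 mice, 12 were left out: 10 with low muscle actin in 1 limb and 2 whose limbs matched those of the other mouse of the pair, in an earlier analysis of the same counts. The other 44 were ranked by the log2 ratio of that percent, cast limb over control limb. The 12 lowest are called the losing set and the 12 highest the keeping set, and 20 middle mice lie between them. The sets were thus chosen by a measured value and are no treatment groups.

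Every mouse was of the Diversity Outbred stock, in which each animal has its own genotype, was 16 weeks old and had carried a cast on a single limb for 3 weeks. Stranded total RNA, depleted of ribosomal RNA, was sequenced from the gastrocnemius, a mostly fast calf muscle, of both limbs. In every animal the right limb wore the cast and the left one served as control. Side and treatment cannot be told apart, and each control limb came from a mouse that bore a cast. The losing set held 6 females and 6 males, and the keeping set 4 females and 8 males. The labels number the mice, and the sets were unevenly spread over these numbers: 7, 3 and 2 losing mice and 2, 5 and 5 keeping mice were numbered 1 to 20, 21 to 40 and 41 to 59.

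The mitochondrial genome encodes 13 proteins, all of them subunits of the respiratory chain or of ATP synthase. The other subunits, the enzymes of fat and sugar burning and the whole machinery that copies, transcribes and translates mitochondrial DNA are encoded in the nucleus and imported. Slow muscle fibres are rich in mitochondria and burn fat, the fastest fibres hold fewer, and disuse is known to lower mitochondrial content in muscle.

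Total counts ran from 1716485 to 9995936 in the 48 libraries, with a median of 4484729. The log2 ratio of depth, cast over control, averaged -0.04 in the losing set and 0.10 in the keeping set (two-sided permutation p = 0.352, 100000 resamples). Markers of muscle fibres were high in all 48 libraries. The skeletal actin gene Acta1 ran from 24430 to 49760 per 1000000 nuclear counts, and Ttn, which encodes the giant spring protein titin, from 3886 to 13240.

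The values that chose the mice are given as a description. In the losing set the mitochondrial share was 11.0 to 28.3% of counts in the control limb (median 17.0%) and 3.50 to 14.8% in the cast limb (median 8.65%). The keeping set had 8.94 to 25.0% (median 14.7%) and 9.20 to 32.1% (median 15.9%). The control limbs of the sets overlapped almost throughout their range, and the cast limbs overlapped between 9.20 and 14.8%. The log2 ratio ran from -1.84 in mouse 1 to -0.66 in mouse 54 in the losing set. In the keeping set it ran from -0.07 in mouse 40 to 0.71 in mouse 51, which stood far above the next keeping mouse at 0.24. The ranking had no wide gap at its thresholds: mouse 7, just outside the losing set, stood at -0.61, and mouse 45, just outside the keeping set, at -0.12.

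**Figure D1:**
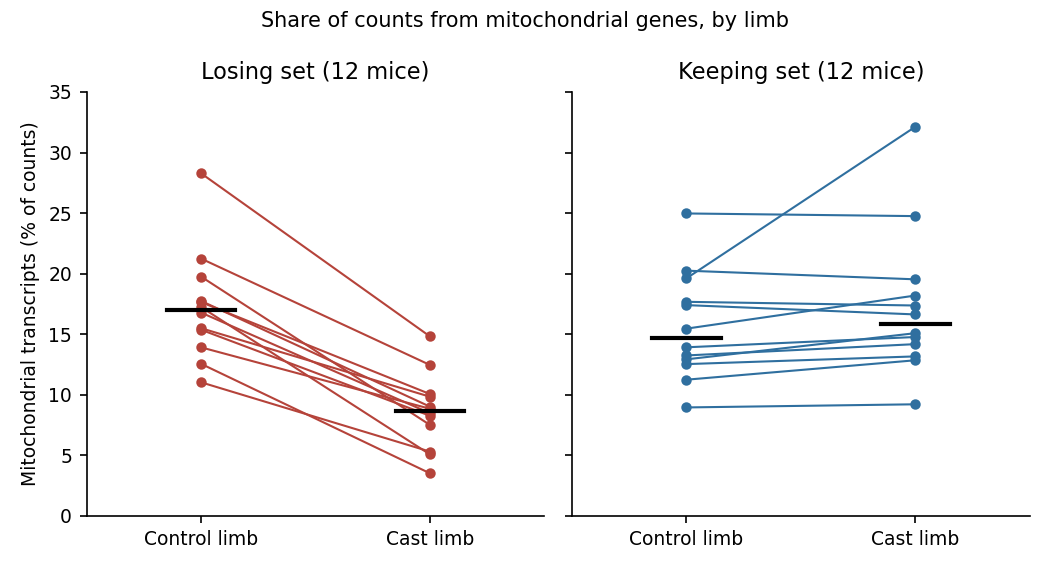
Percent of counts in mitochondrial genes (y axis) in the control and the cast limb (x axis); each line joins the limbs of 1 mouse and black bars are medians. The share fell in all 12 mice of the losing set, from a median of 17.0% to 8.65%, and moved little in the keeping set apart from mouse 51, at 32.1% in the cast limb.

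**Figure D2:**
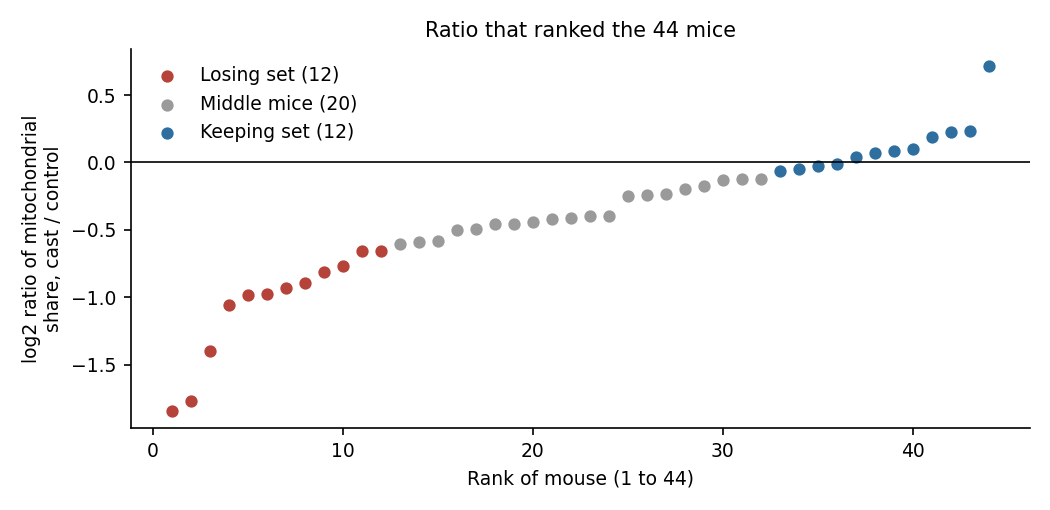
Log2 ratio of the mitochondrial share, cast over control (y axis), for the 44 mice in order of rank (x axis), coloured by set. The ranking is continuous at both thresholds, with mice at -0.66 and -0.61 on either side of the lower one and at -0.12 and -0.07 on either side of the upper one.

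The loss ran over the mitochondrial genome. Each of the 13 mitochondrial genes had a negative median log2 ratio in the losing set, from -0.67 for mt-Co2 to -1.83 for mt-Atp8, and 10 of them fell in all 12 mice. The keeping set had medians between -0.02 (mt-Nd5) and 0.50 (mt-Nd3). mt-Co1, the catalytic subunit of cytochrome c oxidase, had a median of 34190 per 1000000 counts in the control limbs and 10770 in the cast limbs of the losing set. The medians of the keeping set were 33980 and 32880. mt-Nd4l, a small subunit of complex I, fell in all 10 losing mice in which a ratio could be taken, with a median log2 ratio of -1.16, against 0.05 in the keeping set.

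In some libraries single genes departed from the rest of the mitochondrial genome. mt-Nd4l had a count of 0 in the cast limb of mouse 3 and in both limbs of mouse 32, both of the losing set. A count of 0 allows up to 0.776, 0.727 and 0.684 counts per 1000000 in these 3 libraries, while the control limb of mouse 3 had a count of 953. mt-Co2, another subunit of cytochrome c oxidase, had a count of 36 in the cast limb of mouse 3 against 3064 in its control limb. In mouse 32 it had 157 in the control limb and 372 in the cast limb. In mouse 32 mt-Nd3 had a count of 9366 in the control limb and 13599 in the cast limb. In mouse 12 of the keeping set mt-Co1 and mt-Nd4l fell by 0.75 and 1.64 on the log2 scale, although its whole share rose by 0.09.

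The first comparison asks which nuclear genes changed with the cast in each set, with mitochondrial counts removed before scaling. Levels of nuclear genes are given as CPM, that is counts per 1000000 nuclear counts after TMM scaling, and changes on the log2 scale, where 1 is a doubling. It was fitted with edgeR's quasi-likelihood test, with a term for each mouse and 1 cast effect per set, and a gene was called at a Benjamini-Hochberg adjusted p of at most 0.05. In the losing set 3416 of 11542 nuclear genes changed (29.6%), 1774 higher and 1642 lower in the cast limb. In the keeping set a single gene was called (0.00866%), with 1267 at an unadjusted p under 0.05. That gene was Mmp13, a collagenase, which was at a median of 0 CPM in the control limbs of both sets. In the cast limbs it had a median of 20.1 CPM (range 0 to 154) in the losing set and 0.271 CPM (0 to 71.2) in the keeping set. At these levels Mmp13 can pass the filter on low counts through the limbs in which it is high. Its call is therefore a description only. The call in the keeping set was lost without mouse 12 or without mouse 34, and other mice left out gave up to 7 calls (without mouse 23). In the 20 middle mice the cast changed 1289 of 10936 genes (11.8%).

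The second comparison asks for which nuclear genes the cast change itself differed between the sets. Here and below a log2 difference is the cast change of the losing set minus that of the keeping set, ± SE, and the adjusted p is edgeR's. It differed for 590 of 11542 genes (5.11%), 217 higher and 373 lower in the losing set. The median over all genes was 0.02. Leaving out 1 mouse gave 374 (without mouse 51), 376 (40), 378 (43), 383 (30) and 936 (without mouse 3), and the other mice kept the count between these. Because the mice were selected on a share of the same RNA, these calls say which nuclear genes moved with that choice and test no treatment.

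Each limb was also compared between the sets. Between the cast limbs of the sets 446 of 10996 genes differed (4.06%), 160 higher and 286 lower in the losing set, with sex as a covariate. Between the control limbs 0 of 10580 genes passed (0.0%), with 794 at an unadjusted p under 0.05 by edgeR and 2 called by DESeq2.

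Within parts of the sets the count of 590 was not kept. The 10 females gave 0 calls by edgeR, with 1023 genes at an unadjusted p under 0.05, and the 14 males 172. Mice numbered 1 to 20 gave 0, with 884 at an unadjusted p under 0.05, those numbered 21 to 40 gave 685 and those numbered 41 to 59 gave 8. With a cast effect that may differ by sex or by these number blocks the whole sets gave 482 and 555 calls.

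**Figure D3:**
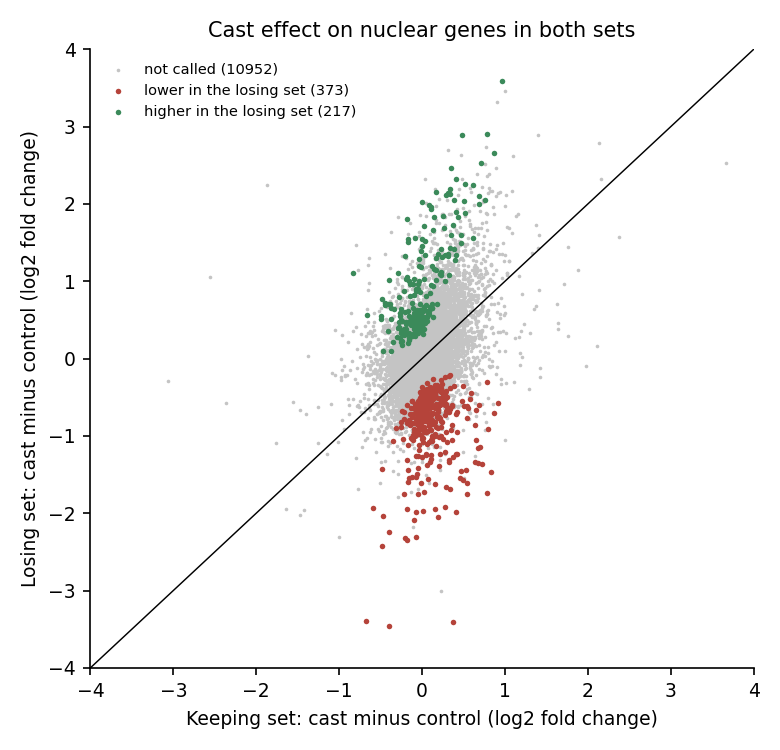
Cast change of each nuclear gene in the keeping set (x axis) and the losing set (y axis), both as log2 fold change from edgeR; coloured points are the 373 and 217 genes whose change differed, and the line marks equal change. Called genes can move in both sets: the slow-fibre genes had a median change of 0.55 in the keeping set and -1.34 in the losing set. The plotted range leaves out 4 genes.

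The nuclear subunits of the respiratory chain were called in 1 direction. Of 78 tested, 17 were called lower in the losing set and 0 higher, where 5.11% of all genes were called, and the median log2 difference was -0.40 against 0.02 for all genes. The cast change itself was called lower in 38 and higher in 1 in the losing set, where 29.6% of all genes changed, and in 0 in the keeping set. The median change over these genes in a mouse ran from -1.08 to 0.38 in the losing set (median -0.27, 10 of 12 mice below 0) and from -0.36 to 0.43 in the keeping set (median 0.13, 4 below 0). The sets therefore overlapped in this summary.

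By complex, 2 of 36 subunits of complex I, which takes electrons from NADH, were called lower, a share near the 5.11% of all genes, with a median of -0.33. They were Ndufs1 at -0.64 ± 0.17 (adjusted p = 0.027) and Ndufs4 at -0.60 ± 0.15 (0.0223). Of the 4 genes of complex II, which also serves the tricarboxylic acid cycle, 3 were lower: Sdhb, Sdha and Sdhd at -0.70, -0.56 and -0.49. Complex III and cytochrome c gave 5 of 10, with a median of -0.55, and complex IV 2 of 12, with Cox7b at -0.75 and Cox7a1 at -0.84. Complex V, the ATP synthase, gave 5 of 16, among them Atp5j at -0.71, Atp5g1 at -0.62 and Atp5f1 at -0.61.

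Uqcrfs1, the iron-sulfur subunit of complex III, shows the pattern in single mice. Its level was 454 to 733 CPM in the control limbs of the losing set (median 587) and 238 to 535 in the cast limbs (median 367). The keeping set had 424 to 788 (median 501) and 424 to 715 (median 538). It fell in 12 of 12 losing mice and in 5 of 12 keeping mice, and 9 losing mice fell further than any keeping mouse. The log2 difference was -0.71 ± 0.14 (adjusted p = 0.00426). Cycs, the electron carrier cytochrome c, had medians of 297 and 162 CPM in the losing set and 293 and 308 in the keeping set, with a difference of -0.90 ± 0.18 (0.00395).

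Genes that feed the chain with fuel were lower too. Of 28 genes of fatty acid uptake and oxidation 17 were called lower in the losing set and 0 higher, with a median log2 difference of -0.75. In that set 26 of the 28 were called lower in the cast limb. Over all genes 5.11% were called in the difference and 29.6% changed in the losing set. The median change over the list was below 0 in 12 of 12 losing mice (-1.22 to -0.03) and in 5 of 12 keeping mice (-0.77 to 0.69). All 28 had a negative difference. Without the term for each mouse 10 were called.

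Acadm, which starts the oxidation of medium-chain fatty acids, was at 266 to 684 CPM in the control limbs of the losing set (median 368) and at 104 to 313 in the cast limbs (median 192). The keeping mice had 213 to 649 (median 298) and 184 to 439 (median 300). Every losing mouse fell, and 9 of them fell further than any keeping mouse. The difference was -1.08 ± 0.18 (adjusted p = 0.0010). Fabp3, which carries fatty acids inside muscle fibres, went from a median of 671 to 179 CPM in the losing set and from 334 to 305 in the keeping set, a difference of -1.997 ± 0.365 (0.00221). Etfa and Etfdh, which pass electrons from fat oxidation to the chain, differed by -0.93 each (0.00137 and 0.00347).

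Of 21 genes of the tricarboxylic acid cycle and its entry, 11 were called lower and 0 higher, where 5.11% of all genes were called. Their median was -0.50, and 3 were called without the term for each mouse. Idh2, a mitochondrial isocitrate dehydrogenase, had medians of 624 and 137 CPM in the control and cast limbs of the losing set. They were 266 and 229 in the keeping set, and the difference was -1.54 ± 0.33 (adjusted p = 0.00699). Mdh1, a malate dehydrogenase, differed by -1.17 ± 0.21 (0.00209) and Pdha1, of the pyruvate dehydrogenase complex, by -0.77 ± 0.15 (0.0030). Suclg2 was called too, at -0.57 ± 0.12 (0.00699). Cs, the citrate synthase often used to gauge mitochondrial content, was at -0.30 ± 0.14 and missed the threshold (0.207).

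Genes for the use of ketone bodies, acetate and amino acids gave 9 of 15 lower and 0 higher, with a median of -0.59. Of all genes 5.11% were called. Bdh1, which makes ketone bodies usable as fuel, had a median of 72.0 CPM in the control limbs and 4.14 CPM in the cast limbs of the losing set, and 40.0 and 26.9 CPM in the keeping set. It fell in 12 of 12 losing mice, 10 of them further than any keeping mouse, with a difference of -2.73 ± 0.54 (adjusted p = 0.00425). Oxct1, the next enzyme of ketone use, differed by -1.14 ± 0.21 (0.0030), Acss1, which activates acetate, by -1.42 ± 0.28 (0.00425) and Acat1 by -0.77 ± 0.13 (0.00135). Pdk4, a kinase that holds back pyruvate entry and is high when fat is burned, was lower as well, at -0.88 ± 0.21 (0.0169).

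Carriers of the inner membrane gave 4 of 16 lower, where 5.11% of all genes were called. Among them Mpc1, a subunit of the mitochondrial pyruvate carrier, separated the sets completely. Its level was 278 to 517 CPM in the control limbs (median 370) and 131 to 363 in the cast limbs (median 197) of the losing set, and 291 to 524 (median 359) and 241 to 697 (median 340) in the keeping set. Its log2 change was -1.56 to -0.39 in the losing set and -0.37 to 0.64 in the keeping set. The difference was -0.85 ± 0.14 (adjusted p = 0.00118), and its partner Mpc2 differed by -0.62 ± 0.15 (0.0158). Slc25a11, which exchanges malate and oxoglutarate, differed by -0.61 ± 0.14 (0.0144).

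All 12 losing mice lay below all 12 keeping mice for 4 of 11542 genes (0.0347%) and above them for 2 (0.0173%). These 6 were looked up after their values were seen, apart from Mpc1. The other lower genes were Ccdc85a at -1.65 ± 0.19 (adjusted p = 2.09e-05), Apool, of the complex that shapes the inner membrane, at -0.81 ± 0.13 (0.0010) and Ccni, a cyclin, at -0.55 ± 0.12 (0.0061). The higher ones were Itm2c at 0.88 ± 0.17 (0.0030) and Rpn2, which helps to attach sugars to new proteins, at 0.57 ± 0.10 (0.00182).

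The machinery of mitochondrial DNA and RNA was called in 1 direction as well, with smaller medians than the respiratory chain. Of 17 genes for copying and transcribing mitochondrial DNA 3 were called lower and 0 higher, against 5.11% of all genes, with a median of -0.16. In the cast limbs of the losing set 8 of the 17 were called lower, against 29.6% of all genes changed. The 3 called in the difference were Tefm, Gabpa and Mterf2. Tefm, which keeps the mitochondrial polymerase elongating, was at -0.64 ± 0.18 (adjusted p = 0.0339). Gabpa, a nuclear activator of respiratory genes, was at -0.60 ± 0.17 (0.0412), and Mterf2 at -0.84 ± 0.24 (0.0412). The polymerase Polrmt itself was at -0.01 ± 0.19 (0.975), Tfam, which packs mitochondrial DNA, at -0.19 ± 0.14 (0.461) and Tfb2m at -0.41 ± 0.16 (0.121). The activator Nrf1 was at -0.12 ± 0.18 (0.741). The medians of Tfam were 51.7 and 44.0 CPM in the losing set and 49.8 and 47.8 in the keeping set.

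For the processing of mitochondrial RNA 4 of 20 genes were called lower and 0 higher, with a median of -0.31, and 11 were called lower and 1 higher in the cast limbs of the losing set. Grsf1, which binds mitochondrial RNA in its granules, fell in 12 of 12 losing mice, 11 of them further than any keeping mouse. Its median went from 165 to 98.8 CPM there and from 145 to 143 in the keeping set, a difference of -0.60 ± 0.12 (adjusted p = 0.00468). Ptcd3, Trmt10c and Pnpt1 differed by -0.44, -0.61 and -0.69 (0.0212, 0.0325 and 0.0387). Lrpprc and Slirp, partners that stabilise mitochondrial messengers, were at -0.36 ± 0.12 and -0.16 ± 0.19 and missed the threshold (0.0789 and 0.668). Of 77 proteins of the mitochondrial ribosome 3 were called lower (Mrpl47, Mrps22 and Mrpl3), a share near the 5.11% of all genes, with a median of -0.09.

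Among 19 regulators of the PGC-1, PPAR and ERR families, which switch on mitochondrial and fat genes, 4 were called lower and 0 higher. The share called over all genes was 5.11%. Esrrg had a median of 36.9 CPM in the control limbs and 8.34 CPM in the cast limbs of the losing set, against 17.9 and 21.1 CPM in the keeping set. It fell in 12 losing and 4 keeping mice, with a difference of -1.98 ± 0.36 (adjusted p = 0.00197). Esrrb was at -2.02 ± 0.42 (0.0061), Ppara at -2.17 ± 0.59 (0.033) and Perm1, a muscle protein that acts with PGC-1, at -1.41 ± 0.31 (0.00913). Ppargc1a, which encodes PGC-1 alpha, had medians of 30.3 and 13.4 CPM in the losing set and 34.1 and 28.9 in the keeping set. It was lower in the cast limb of 11 of 12 losing mice, but its difference of -0.88 ± 0.30 missed the threshold (0.0795), as did Esrra at -0.35 ± 0.17 (0.215).

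Import and quality control gave 3 of 27 lower, where 5.11% of all genes were called. They were Chchd3, Clpx and the import motor Hspa9, at -0.63, -0.57 and -0.49. Fusion, fission and mitophagy gave 3 of 16 lower. Bnip3, a receptor for the removal of mitochondria, was at -0.70 ± 0.14 (adjusted p = 0.00381), and the fusion genes Opa1 and Mfn1 at -0.43 ± 0.12 and -0.47 ± 0.14 (both 0.0396). Of 14 genes of the mitochondrial and integrated stress response 0 were called in either direction, with a median of 0.30. Gdf15, a hormone released under mitochondrial stress, was at 1.36 ± 0.44 (0.065), and Atf4, the transcription factor of that response, at -0.02 ± 0.16 (0.95).

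**Figure D4:**
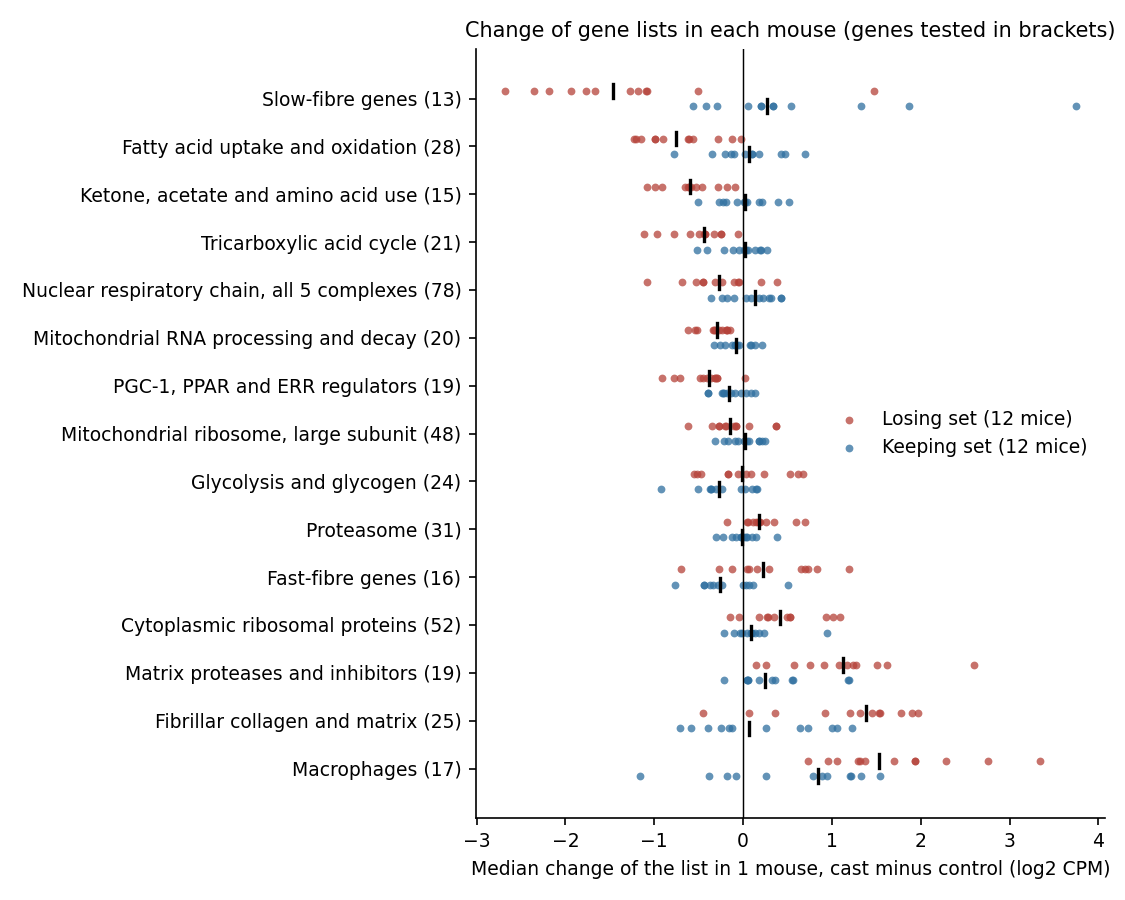
Median log2 change in CPM over each gene list, cast minus control (x axis), with 1 point per mouse, and the number of genes tested in brackets; black bars are medians over 12 mice. Slow-fibre and fuel genes lie lower and macrophage and matrix genes higher in the losing set, and the sets overlap in every list shown.

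Slow-fibre genes had the largest median difference of the lists tested. Of 13 tested, 11 were called lower in the losing set and 0 higher, where 5.11% of all genes were called. Their median log2 difference was -2.01. In the losing set 12 were lower and 1 higher in the cast limb, with a median change of -1.34, and in the keeping set the median change was 0.55 with 0 called. Without the term for each mouse 0 of 13 differences were called, with a median of -1.64. Atp2a2, the calcium pump of slow and heart muscle, was at 310 to 2146 CPM in the control limbs (median 1354) and at 86.9 to 1063 in the cast limbs (median 315) of the losing set. In the keeping set it was at 60.0 to 1604 (median 442) and 96.6 to 1340 (median 515). The difference was -2.19 ± 0.33 (adjusted p = 0.000609). Myl3 and Myl2, light chains of slow myosin, were at -2.40 ± 0.51 (0.00699) and -2.30 ± 0.49 (0.00742), Tpm3 at -2.02 ± 0.43 (0.00696) and Myoz2 at -2.01 ± 0.41 (0.00577).

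Myh7, the slow myosin heavy chain, had medians of 1926 and 538 CPM in the control and cast limbs of the losing set and 580 and 601 CPM in the keeping set. It fell in 11 of 12 losing mice and rose by 1.75 in mouse 1, which had the lowest log2 ratio of the mitochondrial share among the 44 ranked mice. The difference was -2.15 ± 0.54 (adjusted p = 0.0222). Mouse 12 of the keeping set rose by 5.25, from the lowest control limb of all, at 7.77 CPM. Mb, the oxygen store of red fibres, was lower at -1.97 ± 0.43 (0.00898), and Ldhb, the lactate dehydrogenase of oxidative fibres, at -2.10 ± 0.45 (0.00699). Myh2 and Myh1, heavy chains of intermediate fibres, were at -1.64 ± 0.50 and -1.27 ± 0.52 and missed the threshold (0.0523 and 0.145).

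Between the control limbs of the sets 0 of 13 slow-fibre genes were called, with a median log2 difference of 1.17, losing minus keeping. Between the cast limbs 0 of 13 were called, with a median of -0.40. The mean over the 13 genes was 6.00 to 8.46 log2 CPM in the control limbs of the losing set (median 8.03) and 3.11 to 8.20 in those of the keeping set (median 6.46), and these ranges overlapped. In the cast limbs the medians were 6.76 and 7.09. In bulk tissue a smaller share of slow fibres in a piece of muscle and less RNA of these genes per fibre cannot be told apart.

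With the change in slow-fibre genes of each mouse as a covariate, an alternative chosen after seeing the data, 33 genes differed, 6 higher and 27 lower, with 1767 at an unadjusted p under 0.05 by edgeR. The medians kept their sign but 0 genes were called in the lists of fatty acid use (-0.44), the tricarboxylic acid cycle (-0.35) and macrophages (1.32). The covariate follows the sets, so its part and that of the sets cannot be told apart.

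Of 16 fast-fibre genes 3 were called higher and 0 lower, where 5.11% of all genes were called, with a median of 0.48. Casq1, the calcium store of fast fibres, was at 0.63 ± 0.17 (adjusted p = 0.0329). Pvalb, which soaks up calcium, was at 0.84 ± 0.24 (0.0386) and Actn3 at 0.89 ± 0.27 (0.0487). All 3 turned direction when all 56 mice were ranked, to -0.815 for Casq1, -0.664 for Pvalb and -0.949 for Actn3. Casq1 rose in 12 of 12 losing mice and in 4 of 12 keeping mice. Myh4, the fastest heavy chain, was at 0.92 ± 0.31 and missed the threshold (0.0761). Of 24 genes of glycolysis and glycogen 0 were higher and 2 lower, Ldhb and Ugp2 (-0.57 ± 0.16, 0.0314).

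**Figure D5:**
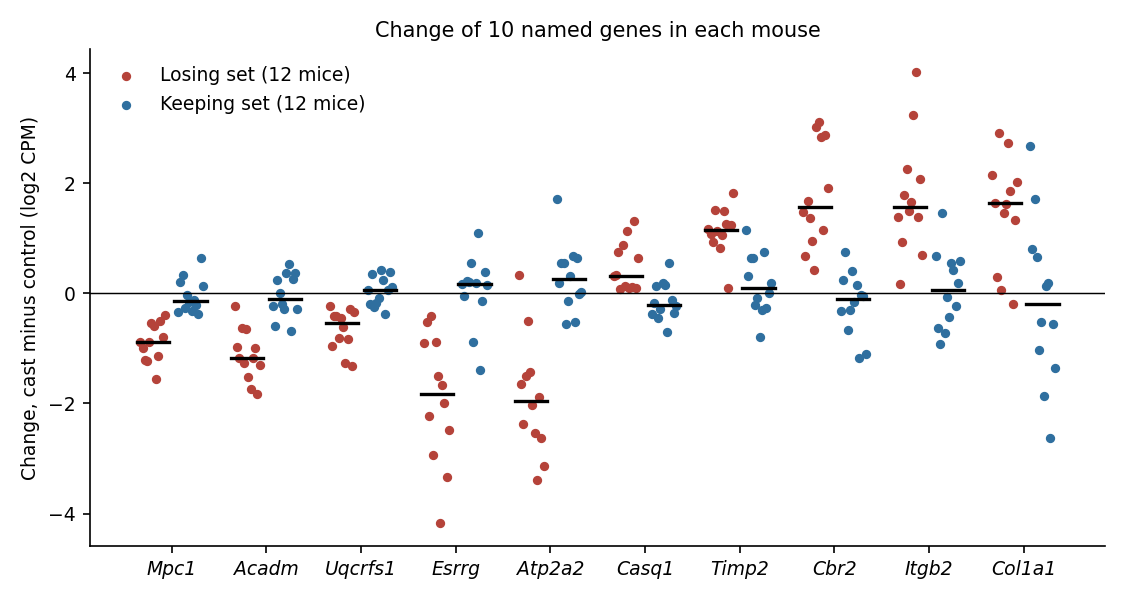
Log2 change in CPM, cast minus control (y axis), of 10 genes (x axis) with 1 point per mouse; black bars are medians over 12 mice. Mpc1 separates the sets completely, and for Col1a1 most of the losing set lies inside the range of the keeping set.

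Of 20 macrophage genes 17 passed the filter on low counts, and 11 did so in a fit of the control limbs alone. Members can thus enter through the limbs in which they are high, and their counts and medians are a description only. The 17 were called higher in the cast limbs of the losing set, with a median change of 1.87, against 0 called and 0.49 in the keeping set. The difference was called for 7 of 17, all higher, with a median of 1.399, and for 3 without the term for each mouse. All genes gave 5.11% called in the difference and 29.6% in the losing set. C1qb, of the complement complex C1q that resident macrophages make, was at 2.37 to 17.8 CPM in the control limbs (median 9.51) and at 10.9 to 354 in the cast limbs (median 38.1) of the losing set. In the keeping set it was at 5.98 to 21.6 (median 11.7) and 6.07 to 32.1 (median 16.4), and the difference was 1.83 ± 0.44 (adjusted p = 0.0162). Ctss, Fcer1g, Csf1r and Gpnmb differed by 1.91, 1.82, 1.42 and 1.28 (0.0225, 0.0162, 0.0178 and 0.0153).

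Summed over all macrophage markers, the level was 52.9 to 275 per 1000000 nuclear counts in the control limbs of the losing set (median 122) and 120 to 2616 in the cast limbs (median 394). In the keeping set it was 58.6 to 222 (median 139) and 83.8 to 356 (median 213). The part of these cells in the fall of mitochondrial and slow-fibre genes was not tested. Among the genes with the largest rises, Clec4a1, Clec10a, Ms4a4a and Itgb2 are surface proteins of myeloid cells, at 2.42 ± 0.65 (adjusted p = 0.031), 2.12 ± 0.55 (0.024), 2.12 ± 0.60 (0.036) and 1.91 ± 0.43 (0.0106). Fermt3, which activates integrins in blood cells, was at 2.02 ± 0.51 (0.0223), Pld4 at 1.98 ± 0.49 (0.0198) and S100a4 at 1.85 ± 0.49 (0.0268). T, B and NK cell markers had 1 gene tested and neutrophil markers 0. Summed T, B and NK markers stood at 290 per 1000000 nuclear counts in the control limb of keeping mouse 23 and at 45.7 in its cast limb. The medians of the keeping set were 3.57 and 5.74.

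Cbr2, a carbonyl reductase, was among the largest rises. It was at 5.27 to 25.0 CPM in the control limbs (median 13.2) and at 13.5 to 112 in the cast limbs (median 46.2) of the losing set, and at medians of 21.8 and 15.6 in the keeping set. It rose in 12 of 12 losing mice, 10 of them above any keeping mouse, with a difference of 1.99 ± 0.30 (adjusted p = 0.000609). Cpxm1, a carboxypeptidase-like protein of the matrix, had medians of 3.20 and 36.4 CPM in the losing set and 5.22 and 9.57 in the keeping set, a difference of 2.64 ± 0.52 (0.00402).

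Collagen and other matrix genes were called higher in 20 of 25 in the cast limbs of the losing set and in 0 in the keeping set. The shares called over all genes were 29.6% and 0.00866%, so a list has almost no calls to give in the keeping set. The difference was called for 4 of 25, where 5.11% of all genes were called, with a median of 0.92. They were Col6a2 at 1.08 ± 0.28 (adjusted p = 0.0247), Col6a1 at 1.00 ± 0.27 (0.0292), Col1a1 at 1.68 ± 0.49 (0.0409) and Col1a2 at 1.53 ± 0.45 (0.0433). Col1a1, a chain of fibrillar collagen I, had medians of 264 and 1083 CPM in the losing set and 422 and 368 CPM in the keeping set. Its keeping mice ran from -2.63 to 2.68 on the log2 scale and overlapped the losing mice at -0.19 to 2.91. Col3a1 was at 1.31 ± 0.46 and missed the threshold (0.0896). With a cast effect by number block 0 of 25 were called, with a median of 0.80, and in mice numbered 1 to 20 alone the median was -0.21, with only 2 keeping mice.

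Of 19 matrix proteases and their inhibitors 4 were called higher and 0 lower, where 5.11% of all genes were called. Their median was 0.82. Only 14 of the 19 passed the filter in a fit of the control limbs alone. Members can thus enter through the limbs in which they are high, so this count and median are a description only. Timp2, an inhibitor that also activates a gelatinase, was at 65.4 to 159 CPM in the control limbs (median 104) and at 135 to 418 in the cast limbs (median 223) of the losing set, and at medians of 136 and 144 in the keeping set. The difference was 0.97 ± 0.19 (adjusted p = 0.00425). Mmp14, a membrane-bound collagenase, was at 1.42 ± 0.34 (0.0157) and Ctsk, a cathepsin that cuts collagen, at 1.62 ± 0.48 (0.0454). Mmp2 was higher in the cast limb of 12 losing and 11 keeping mice, and its difference of 0.80 ± 0.24 missed the threshold (0.0523), as did that of Mmp13 (0.496). Of 12 markers of resting fibro-adipogenic progenitors, the cells that lay down matrix, 1 was called higher (Apod, 0.94 ± 0.28, 0.0444).

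Genes of muscle wasting were called in both directions in the difference, where 5.11% of all genes were called. Of 16 ubiquitin ligases and FoxO targets 1 was called higher (Cdkn1a, a cell cycle inhibitor, at 0.89 ± 0.25, adjusted p = 0.0335) and 1 lower (Fbxo30, at -0.84 ± 0.25, 0.0491). The muscle ligases Fbxo32 and Trim63 were at -0.12 ± 0.24 (0.81) and 0.16 ± 0.18 (0.655), and Mstn, which holds back muscle growth, at 0.04 ± 0.47 (0.975). Acta1 was at 0.11 ± 0.21 (0.817). Of 31 proteasome subunits 15 were higher in the cast limbs of the losing set, where 29.6% of all genes changed, and 0 in the keeping set. The difference was called for 1, Psmc5 at 0.45 ± 0.13 (0.0362), which was at -0.0647 with all 56 mice ranked. Autophagy genes gave 1 higher (Sqstm1, 0.46 ± 0.13, 0.0396) and 1 lower (Gabarapl1, -0.79 ± 0.18, 0.0105) of 20.

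Of 52 cytoplasmic ribosomal proteins 42 were higher in the cast limbs of the losing set, where 29.6% of all genes changed, and 0 in the keeping set. In the middle mice 37 were higher, where 11.8% of all genes changed. The difference was called for 2, among them Rpl18 at 0.63 ± 0.16 (adjusted p = 0.0231), with a median of 0.32 over the list and of -0.27 in mice numbered 1 to 20 alone. Without mouse 3 it was called for 15, all higher. Of 15 genes of denervation and the synapse 0 were called, with Chrna1 and Chrnb1, subunits of the acetylcholine receptor, at 0.49 ± 0.41 (0.51) and 0.57 ± 0.28 (0.225). Runx1 was at 0.64 ± 0.52 (0.499), and Sln, a regulator of the calcium pump, at 0.17 ± 1.23 (0.955).

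Vessel genes with a call in the difference were lower in the losing set, where 5.11% of all genes were called. Of 15 endothelial markers 2 were called lower, Ptprb at -0.69 ± 0.14 (adjusted p = 0.0061) and Flt1 at -0.55 ± 0.15 (0.0348). Of 11 markers of pericytes and smooth muscle 2 were lower, Rgs5 at -0.80 ± 0.14 (0.00143) and Kcnj8 at -0.66 ± 0.18 (0.0335). The cast change within the losing set was mixed. There 2 endothelial markers were called higher and 4 lower, with a median change of -0.07 against 0.19 in the keeping set. For pericytes and smooth muscle 2 were called higher and 2 lower, with medians of 0.21 and 0.36. Rgs5, a pericyte marker, had medians of 364 and 235 CPM in the losing set and 324 and 365 CPM in the keeping set. The summed endothelial markers had medians of 652 and 588 per 1000000 nuclear counts in the losing set and 558 and 652 in the keeping set. The haemoglobin gene Hbb-bs, a sign of blood left in the tissue, was lower at -0.71 ± 0.19 (0.0317). Of 15 genes listed as adipocyte markers 1 was called, Car3, which was lower at -1.29 ± 0.34 (0.025). That list as a whole had no direction, with a median of 0.08 and 8 positive and 7 negative differences. Car3 alone is thus no measure of adipocytes here. Of 11 markers each of Schwann cells and tendon 0 were called.

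Several of the genes with the largest falls belong to none of these lists. Dach2, a transcription cofactor of muscle, was at -3.79 ± 0.78 (adjusted p = 0.00603) and close to the limit of detection, with medians of 3.28 and 0.231 CPM in the losing set and 0.830 and 1.48 CPM in the keeping set. Lrrc52, a subunit of potassium channels, fell in 12 of 12 losing mice from a median of 11.3 to 0.605 CPM and went from 4.83 to 3.17 CPM in the keeping set (-3.06 ± 0.66, 0.00743). Lgi1 was at -2.12 ± 0.37 (0.00143), the natriuretic peptide receptor Npr3 at -2.30 ± 0.58 (0.0208), the mitochondrial carrier Slc25a34 at -2.23 ± 0.51 (0.0122) and Cnksr2 at -2.23 ± 0.50 (0.0108). On the other side Lrrc17 was at 1.86 ± 0.47 (0.0225). Rpl14-ps1, a copy of a ribosomal protein gene whose reads may be shared with its parent, was at 1.94 ± 0.41 (0.0122). It was at 0 CPM in both limbs of 6 losing and 4 keeping mice, so its value rests on the others.

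The 20 middle mice, which neither set holds, give the nearest thing to a repeat. In them the cast change was fitted as a slope on the log2 ratio of the mitochondrial share, which ran only from -0.61 to -0.12, so a gene that falls with mitochondrial loss has a positive slope. No gene was called, 0 of 10936 (0.0%), with 778 (7.12%) at an unadjusted p under 0.05 by edgeR and 1 called by DESeq2. Of the 373 genes called lower in the losing set 369 were in this fit, and 334 of them (90.5%) had a positive slope, 140 (37.9%) at an unadjusted p under 0.05. Of the 217 called higher 214 were in it, and 180 (84.1%) had a negative slope, 24 (11.2%) at an unadjusted p under 0.05. Over all genes 49.2% of slopes were positive. These genes move together within a mouse, so the shares carry no test.

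By list, slopes in the middle mice were positive for 28 of 28 genes of fatty acid use, 21 of 21 of the tricarboxylic acid cycle, 77 of 78 of the nuclear respiratory chain and 13 of 13 slow-fibre genes. They were negative for 25 of 25 matrix genes and for the 15 macrophage genes that passed the filter there. Other lists did not follow the sets. Proteasome subunits had a positive difference in 27 of 31, yet a positive slope, the opposite direction, in 26 of 31. Cytoplasmic ribosomal proteins had a positive difference in 51 of 52, with 25 positive and 27 negative slopes. Genes for copying and transcribing mitochondrial DNA had a negative difference in 15 of 17, with 10 positive and 7 negative slopes. Among the named genes, Bnip3 had a slope of 1.63 per log2 unit (unadjusted p = 6.9e-05), Etfa of 1.33 (0.000698), Uqcrfs1 of 1.27 (0.00434) and Esrrg of 3.19 (0.0053), all of which missed the adjusted threshold in edgeR. Cdkn1a, called higher in the losing set, had a slope of 0.00, and Cpxm1 one of -1.45 (0.385).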

How the data were processed

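The deposited tables hold raw read counts per gene symbol, whole numbers for 32544 symbols in 1 table per sex, per the file headers. For the aligner, counter, annotation and build: not given in the sources used here. Coordinates are therefore left out. Groups came from the labels, whose animal number pairs the limbs. Deviations from the mean of set and limb correlated at 0.14 to 0.61 between limbs of the same mouse (median 0.42), and in 24 of 24 mice over 0.1. The 13 mt- symbols were removed before TMM scaling and edgeR's filter. Tests used edgeR 4.0.16 in R 4.3.3, with limma 3.58.1 and DESeq2 1.42.0 as alternatives. Per-mouse changes are log2 CPM with a prior count of 2. Floors (3 counts) cover counting error only, and the labels name no molecular identifiers. Each SE is the absolute log2 value over the square root of edgeR's F, and it includes variation between mice. Tested on simulated data for the difference of the sets, over 11426 genes, the fit recovered 60 of 100 changes of 1 and 96 of 100 changes of 2 on the log2 scale, with 12 calls in error.

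Members, lists, tests and naming rule were chosen with earlier results of these data known. Named were the 12 largest calls on each side at an average log2 CPM of at least 1 with 9 of 12 losing mice beyond the keeping median, leaving out predicted genes, up to 4 genes per list by p, and fixed genes whatever their result. Fgf21, Twnk, Malat1 and Neat1 of these had no test. Among the genes the rule names, 1 is not reported here. No columns of other samples were used. Alternatives were scaling, filters, DESeq2, voom, no block, sex and number terms, set sizes, other rankings, parts of the sets and leaving out each mouse.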

Additional observations from a re-analysis of the deposited data

Results flagged for a closer look

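Mouse 51 stood apart from the other 7 of the 8 male mice of the keeping set on the measure that ranked the mice. Its log2 ratio of the mitochondrial share was 0.7126, and its cast limb held 32.13% mitochondrial counts, the highest share of all 48 libraries. Each value lay further from the nearest other mouse than Dixon's 95% criterion allows. The criterion was applied to 12 groups and measures, and in unselected samples chance alone passes it in about 1 of 20. These mice were chosen by the same ratio, so that rate does not hold here and the distance is a description only. The cast limb of mouse 51 was also the most deeply sequenced of the 48 libraries, with 9995936 counts. The part of this depth in its share was not tested. Without mouse 51 the count of genes whose cast change differed was 374 in place of 590.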

How the results depend on the processing

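The 590 genes whose cast change differed were 586 with DESeq2's size factors, 588 with mitochondrial genes kept in the library sizes, 430 without a low-count filter and 567 at a mean of at least 1 CPM. DESeq2 gave 875, limma voom 808, sets of 16 and 16 mice 770 and ranking by the difference of percents 570. Without the replicate block, that is without the term for the mouse that pairs its limbs, 185 differed and 0 changed in the keeping set. With all 44 mice in the fit 926 differed and 3 changed in the keeping set, and a slope over 44 mice gave 1397. Sets of 8 and 8 mice gave 103, with 2267 changed in the losing set and 0 in the keeping set. Ranking all 56 mice gave 4119, 6233 and 0. The same 3 counts were 0, 1079 and 0 in females alone, 172, 1186 and 0 in males alone, and 0, 552 and 2 in mice 1 to 20. They were 8, 277 and 18 in mice 41 to 59, and mice 21 to 40 had 2264 changed in the losing set. With the slow-fibre change as a covariate 33 differed and 0 changed in the keeping set. The single call of the keeping set became 9 without a low-count filter, 4 with DESeq2, 0 with a cast effect by sex, 2 with one by number block, 3 with 16 and 16 mice and 2 with the ranking by difference. Between cast limbs the 446 calls became 182 without a filter, 882 with DESeq2 and 274 with voom. DESeq2 called 2 genes between control limbs and 1 in the middle mice, where no filter also gave 1. Leaving out 1 mouse gave 374 to 936 differences, 2593 to 3792 changes in the losing set and 0 to 7 in the keeping set. Parts of the sets hold fewer mice, and for the other settings the cause was not tested.

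Of 3190 values of named genes under alternatives other than leaving out a mouse, 2248 kept their side of the threshold, 873 lost the call, 55 gained it and 14 reversed. Of 3336 values without 1 mouse the counts were 2940, 374, 22 and 0. Genes that missed the threshold in both fits count as kept, and 59 and 28 of them had another sign. Myh7 was at 0.0884 with the slow-fibre covariate. In mice 1 to 20 alone Lrrc17 was at -0.268, S100a4 at -0.252, Sdha at 0.015, Opa1 at 0.075, Mfn1 at 0.04, Col1a1 at -0.281 and Col1a2 at -0.176. With all 56 mice ranked, which brings in mice with low muscle actin, Casq1 was at -0.815, Pvalb at -0.664, Actn3 at -0.949, Psmc5 at -0.0647, Sqstm1 at -0.297 and Mstn at -2.16. Leaving out each mouse, the slow-fibre covariate and both settings on nuclear copies were chosen after seeing the data. A ranking without mitochondrial ribosomal and transfer RNA was not run, since the tables used hold no such symbols.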

Other observations

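Reads of the mitochondrial genome can be assigned to nuclear copies of it. In a search of mouse transcripts of the GENCODE M21 annotation, 16 nuclear symbols of the tables matched a mitochondrial transcript over at least 100 bases at 90% identity or more. Together they took 0.358 to 4.26% of the counts of a library (median 1.55%). Of the 13 that were tested, 4 were called lower in the losing set and 0 higher. With these symbols left out 568 genes differed between the sets. With their counts added to the mitochondrial share that ranked the mice, the same 12 losing and 12 keeping mice were picked. The fit and its 590 calls were therefore unchanged by construction.

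Mouse 1 had the lowest log2 ratio of the mitochondrial share among the 44 ranked mice, and its mean over the 13 slow-fibre genes rose by 1.62 on the log2 scale. Of the other 11 losing mice all fell, by 0.73 to 2.50.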
